A study of Homo sapiens with 6 samples.

Results

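The mRNA decay machinery was described here as 50 genes: 10 of decapping and 5'-to-3' decay, 11 of the CCR4-NOT complex, 3 of the PAN2-PAN3 and PARN deadenylases, 11 of the RNA exosome, 8 of nonsense-mediated decay, and 7 that bind AU-rich elements or belong to the TOB family. Each was taken by its symbol from the 78304 genes of the expression table, and all 50 were found once. The data are RNA sequencing libraries of wild-type Huh7, an established human hepatocellular carcinoma line, all from cells grown in DMEM with serum. There were 3 libraries of cells given DMSO, the solvent control, and 3 of cells given the compound 16'-DEC, both for 24 h. The labels state neither the dose of 16'-DEC nor whether the replicates of a group were separate cultures, so the tests measure the spread between these libraries, which may be technical.

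Most cytoplasmic mRNAs are degraded from their ends. The poly(A) tail is first shortened by the PAN2-PAN3 and CCR4-NOT deadenylases, after which the mRNA is either decapped by DCP2 and eaten by the exonuclease XRN1 from the 5' end, or degraded by the exosome from the 3' end. Nonsense-mediated decay sends mRNAs with a premature stop codon, and some normal ones, into these routes through the helicase UPF1, and proteins such as ZFP36 do the same for mRNAs with AU-rich elements in the 3' UTR.

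Sequences of some members are given first, because the size of the changes below went with the base composition of the transcripts. The next lines show, for 2 pairs of partners in one complex, the 120 coding bases nearest the middle of the coding sequence that lie in 1 exon, with every G and C in capitals (GENCODE 29 transcripts on GRCh38, 5' to 3' on the coding strand). UPF1 is at chr19:18855968-18856087 in exon 12 of the plus strand, UPF2 at chr10:12001677-12001796 in exon 5 of the minus strand, EXOSC10 at chr1:11081118-11081237 in exon 11 of the minus strand and DIS3 at chr13:72772693-72772812 in exon 9 of the minus strand.
UPF1: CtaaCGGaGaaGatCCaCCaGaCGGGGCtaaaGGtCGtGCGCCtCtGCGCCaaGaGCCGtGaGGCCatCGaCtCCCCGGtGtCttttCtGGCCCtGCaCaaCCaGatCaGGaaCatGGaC
UPF2: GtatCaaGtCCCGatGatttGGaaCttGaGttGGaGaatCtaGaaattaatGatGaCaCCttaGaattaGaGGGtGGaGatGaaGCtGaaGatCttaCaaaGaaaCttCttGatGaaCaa
EXOSC10: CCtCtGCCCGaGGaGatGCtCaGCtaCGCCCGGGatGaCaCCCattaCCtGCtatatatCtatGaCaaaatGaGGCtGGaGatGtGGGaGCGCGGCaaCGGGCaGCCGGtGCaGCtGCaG
DIS3: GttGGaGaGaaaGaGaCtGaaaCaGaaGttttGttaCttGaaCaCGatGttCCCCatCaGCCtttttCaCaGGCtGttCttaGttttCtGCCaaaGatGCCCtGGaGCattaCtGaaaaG
Of these 120 bases, 72 were G or C in UPF1 and 44 in UPF2, and 71 in EXOSC10 and 51 in DIS3. The whole transcripts had a GC content of 60.5% for UPF1, 40.3% for UPF2, 49.3% for EXOSC10 and 39.1% for DIS3. Levels of UPF2 and DIS3 fell with 16'-DEC, and those of their partners did not pass the test, as described below. Under 2 other scalings UPF1 and EXOSC10 were called higher. The 2 pairs shown had the widest shifts in TPM ratio of the 10 pairs compared below. PAN2 and PAN3, partners with transcripts at 50.8% and 49.7% GC, both fell.

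The mRNAs of some decay factors themselves carry AU-rich elements. The letters TTATTTATT, a preferred binding sequence of the ZFP36 proteins, were searched on the sense strand in the last 500 bases of the 3' UTR, for the 34 members with a 3' UTR of at least that length. They were found in 4 members (11.8%), against 2.88% of the 7942 protein-coding genes tested that have such a window. The shorter TATTTAT, which every match to the longer sequence contains, was found in 8 of the 34 (23.5%) and in 15.6% of those genes. The 30 bases around a match are shown with the longer sequence in capitals (GRCh38, 3' UTR in the last exon). The second match in EXOSC6, which overlaps the one shown, is left out.
ZFP36, chr19:39409196-39409225, plus strand: tatgacgactTTATTTATTctaatatgatt
ZFP36L1, chr14:68788076-68788105, minus strand: aactgttggaTTATTTATTttagaaattcc
UPF1, chr19:18867923-18867952, plus strand: gcagggactcTTATTTATTcccattgctct
EXOSC6, chr16:70247243-70247272, minus strand: tatatttattTTATTTATTtattaattatt
The 4 genes did not move together. ZFP36 was higher with 16'-DEC, EXOSC6 lower, and ZFP36L1 and UPF1 did not pass the test. A match describes the letters in this window and does not show binding.

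Values are the authors' TPM (a level scaled by gene length and by the library's total), and changes are 16'-DEC minus DMSO on the log2(TPM + 1) scale, which understates changes of low genes. They were tested with limma over the 14275 genes whose mean over the 6 libraries reached 1 TPM. "Rose" and "fell" mean a Benjamini-Hochberg adjusted p below 0.05. Because TPM are relative, each value also depends on scaling: the median change of all genes was -0.31 as deposited, -0.01 under median-of-ratios scaling and 0.11 after quantile normalization. In such bulk RNA, fewer cells that express a gene and less of its RNA per cell cannot be told apart. Values "at matched GC content" come from a fit in which a smooth trend of each library on transcript GC content and length was removed first. That removal also took out the average change of all genes, whose median was then 0.02. A value above 0 there means higher relative to genes of like GC content and length, and need not be a rise in TPM.

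The 6 libraries listed between 27543 and 31590 genes above 0 TPM. Correlations with the other libraries of the same group averaged 0.98 to 0.99. The 10 hepatocyte markers summed to between 13990 and 14590 TPM in the DMSO libraries and between 12200 and 12650 TPM in the 16'-DEC libraries. Within that sum ALB (4719 to 5221 TPM with DMSO, 4210 to 4648 TPM with 16'-DEC), AFP (2510 to 2849 TPM and 827 to 1043 TPM), APOB and FGB were lower in every treated library. APOA1, SERPINA1 (1935 to 2198 TPM and 2872 to 2948 TPM) and HNF4A (53.55 to 55.53 TPM and 59.69 to 75.03 TPM) were higher. Of 6 leukocyte markers, CD3E was at 0 and PTPRC at no more than 1.17 TPM, while LYZ, lysozyme, was at 1633 to 1807 TPM with DMSO and at 826 to 948 TPM with 16'-DEC. Fibroblast markers summed to at most 2.52 TPM and endothelial markers to at most 0.722 TPM. Of the 16'-DEC libraries, replicate 3 was the lowest for 39 of the 50 members. Without it 6 members rose and 30 fell, the same counts as with it, and the median change of the members was -0.41 in place of -0.51.

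All 50 members had a mean of at least 1 TPM and were tested. Of these, 6 rose, 30 fell and 14 did not pass, so 72.0% were called, where 71.5% of all genes tested were. Lower calls took in 60% of members and 48.9% of all genes, and higher calls 12% and 22.7%. The median change of the members was -0.51. A fall of at least 1 on the log2 scale was found in 12 members (24%), against 23.7% of all genes. In 37 members the libraries of the groups did not overlap, which was also so for 75.3% of all genes, and in 30 of them 16'-DEC was lower (60%, against 51% of all genes). The members' summed level was 2120, 2109 and 2101 TPM with DMSO and 1659, 1684 and 1474 TPM with 16'-DEC. The share of calls that were lower moved with the scaling: 83.3% of member calls as deposited (68.3% of the calls on all genes), 57.5% under median-of-ratios scaling (all genes 50.4%) and 56.4% after quantile normalization (all genes 44.2%). Median-of-ratios scaling called 17 members higher and 23 lower, where it called 74.7% of all genes, 37.1% higher and 37.7% lower. Quantile normalization called 17 members higher and 22 lower, where it called 75.2% of all genes, 42% higher and 33.3% lower. At matched GC content 16 members were higher and 15 lower, with a median of 0.02. The same fit called 66.2% of all genes, 34.5% higher and 31.7% lower. A fall of at least 1 was left there in 1 member, PAN3, and in 4.91% of all genes, against 15.8% under median-of-ratios scaling and 13.1% after quantile normalization.

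**Figure D1:**
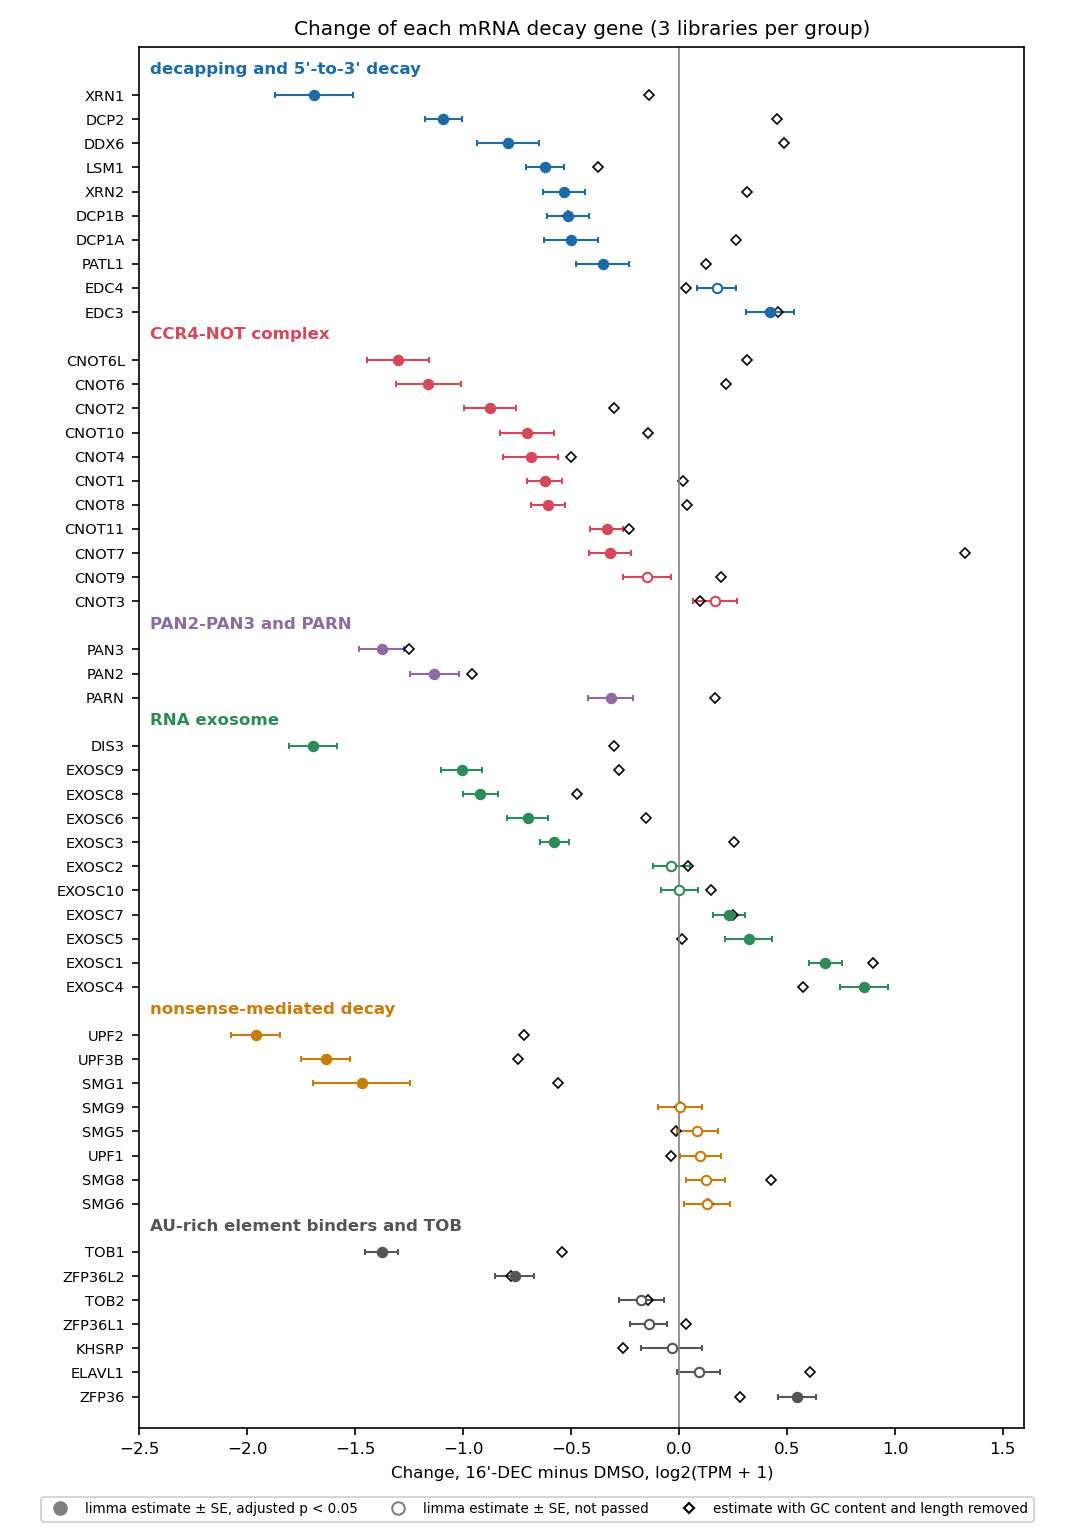
Change of each of the 50 members on the log2(TPM + 1) scale, 16'-DEC minus DMSO, by complex. Circles are limma estimates with the standard error (3 libraries per group), filled where the adjusted p is below 0.05, and diamonds are the estimates with GC content and length removed. The lowest member is UPF2 at -1.96 and the highest EXOSC4 at 0.86, and many diamonds of decapping and CCR4-NOT genes lie to the right of 0 while those of PAN2, PAN3, UPF2 and UPF3B stay to the left.

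Among decapping and 5'-to-3' decay factors, 8 of 10 fell and 1 rose, beside 48.9% lower and 22.7% higher of all genes. The count was 4 lower and 2 higher under median-of-ratios scaling (all genes 37.7% and 37.1%). It turned to 2 lower and 5 higher at matched GC content (all genes 31.7% and 34.5%). XRN1 (ENSG00000114127, chromosome 3, 142306607 to 142448062; GRCh38, GENCODE 29), the cytoplasmic exonuclease that degrades decapped mRNA, was at 11.1, 7.94 and 10.8 TPM with DMSO and at 3.19, 2.37 and 1.69 TPM with 16'-DEC. The groups did not overlap, and the highest 16'-DEC library was below the lowest DMSO library by more than the spread within either group. The change was -1.69 ± 0.18 (SE, adjusted p = 3.78e-05, limma), but -0.14 at matched GC content, which did not pass (adjusted p = 0.366, limma). XRN2, the nuclear exonuclease that acts in transcription termination, stood far higher, at 157, 147 and 151 TPM with DMSO and 105, 118 and 91.9 TPM with 16'-DEC. It fell by 0.53 but was higher by 0.31 at matched GC content.

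DCP2, the enzyme that removes the cap, was at 31.9, 30.3 and 29.1 TPM with DMSO and at 13.7, 14.8 and 12.8 TPM with 16'-DEC, so that every treated library held less than any control library. It fell by 1.09 ± 0.09 (SE, adjusted p = 5.19e-06, limma) and was higher by 0.45 at matched GC content. Its activators DCP1A and DCP1B fell by about the same amount, 0.50 and 0.51, from means of 11.9 and 8.86 TPM to 8.2 and 5.91 TPM. Neither passed under median-of-ratios scaling or after quantile normalization (both at -0.02 in the latter), and at matched GC content DCP1A was called higher at 0.26 and DCP1B lower at -0.51.

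EDC3, an enhancer of decapping, was the member of this group that rose. Its libraries were at 20.4, 22.4 and 21.2 TPM with DMSO and at 33.3, 29.1 and 24.8 TPM with 16'-DEC. The groups did not overlap, and 16'-DEC replicate 3 was the closest to the controls. The change was 0.42 ± 0.11 (SE, adjusted p = 0.00772, limma), and EDC3 was called higher under every alternative tried. EDC4, the scaffold of the decapping complex, had values of 21.2 ± 1.62 and 24.1 ± 1.64 TPM (SD, n = 3 per group). It did not pass (0.17, adjusted p = 0.113, limma), although its libraries did not overlap either. Median-of-ratios scaling (0.51) and quantile normalization (0.58) called EDC4 higher. DDX6, a helicase that links deadenylation to decapping, fell from 46.8 ± 2.98 to 27.0 ± 5.59 TPM (SD, n = 3), a change of -0.79 that was 0.49 at matched GC content. PATL1, which bridges the 3' end and the decapping enzyme, fell by 0.35, but it was at 0.07 after quantile normalization, at 0.12 at matched GC content, and its adjusted p was 0.0832 when DMSO replicate 1 was left out and 0.0706 when DMSO replicate 3 was (limma). LSM1, the subunit particular to the cytoplasmic LSM ring, fell by 0.62 (75.3 ± 3.52 to 48.7 ± 4.53 TPM, SD, n = 3) and was lower under every alternative.

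Of the 11 genes listed for the CCR4-NOT complex, 9 fell and none rose, at a median of -0.62, beside 48.9% lower and 22.7% higher of all genes. Under median-of-ratios scaling 7 of 11 were lower and 1 higher (all genes 37.7% and 37.1%). At matched GC content 3 were lower and 3 higher (27.3% each, near the 31.7% and 34.5% of all genes). The 4 catalytic subunits fell by different amounts. CNOT6L was at 17.4, 15.1 and 16.8 TPM with DMSO and at 7.30, 6.47 and 4.66 TPM with 16'-DEC, and CNOT6, its paralog, went from 21.2 ± 1.36 to 9.05 ± 2.06 TPM (SD, n = 3). Both lost over 50% of their mean level, without overlap between groups (-1.3 and -1.16, adjusted p = 4.28e-05 and 1.21e-04, limma), but they were at 0.31 and 0.22 at matched GC content. CNOT8 fell by 0.61, from 62.7 ± 1.59 to 40.8 ± 3.04 TPM (SD, n = 3), and was at 0.04 at matched GC content. CNOT7, its paralog and the most abundant catalytic subunit, was at 117, 97.2 and 113 TPM with DMSO and at 93.8, 87.9 and 79.4 TPM with 16'-DEC. Its groups only just failed to overlap, the change was -0.32, it turned to 0.03 under median-of-ratios scaling, and with DMSO replicate 1 left out its adjusted p was 0.0523 (limma).

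The value at matched GC content is computed from 1 annotated transcript per gene. For CNOT7 the principal transcript used here is 6913 bases long with a GC content of 35.7%, the lowest of all members, and the change at matched GC content was 1.33, the highest of all members. Other transcripts of CNOT7 were not tried, and which of them these cells use was not tested.

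CNOT1, the scaffold of the complex, was at 154, 156 and 151 TPM with DMSO and at 92.0, 109 and 97.7 TPM with 16'-DEC. The 3 control libraries lay close together and far above all treated ones, and the change was -0.62 ± 0.08 (SE, adjusted p = 1.08e-04, limma). At matched GC content it was 0.02. CNOT2, which forms the NOT module with CNOT3, fell by 0.87 and was lower under every alternative (-0.30 at matched GC content). CNOT3 was at 17.0 ± 1.55 and 19.2 ± 1.78 TPM (SD, n = 3), with overlapping groups and no pass (adjusted p = 0.173, limma). However, CNOT3 was called higher under median-of-ratios scaling (0.50) and after quantile normalization (0.60). CNOT4, a ubiquitin ligase, fell by 0.69 (-0.50 at matched GC content), but did not pass after quantile normalization (-0.20, adjusted p = 0.103, limma). CNOT10, which binds the N-terminal end of the scaffold, fell by 0.70, but did not pass at matched GC content (-0.15, adjusted p = 0.198, limma). CNOT11, the partner of CNOT10, fell by 0.34 but median-of-ratios scaling put it at 0.01. CNOT9, through which miRNA silencing proteins contact the complex, had overlapping groups and did not pass (54.6 ± 4.57 and 49.3 ± 6.45 TPM, SD, n = 3).

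Both subunits of the PAN2-PAN3 deadenylase fell. PAN3 (ENSG00000152520, chromosome 13, 28138506 to 28295335), the regulatory subunit, was at 12.9, 12.4 and 12.1 TPM with DMSO and at 4.17, 4.75 and 3.67 TPM with 16'-DEC. PAN2, the catalytic subunit (ENSG00000135473, chromosome 12, 56316223 to 56334053), was at 9.77, 11.4 and 11.1 TPM with DMSO and at 4.95, 4.35 and 3.81 TPM with 16'-DEC. In both genes every treated library was at about a level of 5 TPM or less and every control library above 9 TPM. The changes were -1.38 ± 0.10 and -1.13 ± 0.11 (SE, adjusted p = 4.12e-06 and 2.30e-05, limma). At matched GC content they were -1.25 and -0.96, so these genes moved little with that adjustment. The PAN3 transcript used for that value has a 3' UTR of only 17 bases, and other transcripts were not tried. The gene CNPY2 overlaps PAN2 on the same strand and was at 148 TPM with DMSO and 158 TPM with 16'-DEC. PARN, a poly(A)-specific ribonuclease, fell by 0.32, but median-of-ratios scaling put it at 0.03 and 0.17 at matched GC content, and its adjusted p was 0.0565 when DMSO replicate 1 was left out and 0.0651 when DMSO replicate 3 was (limma).

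The RNA exosome is a ring of 6 subunits under a cap of 3, with the nucleases DIS3 and EXOSC10 attached. Its mRNAs went both ways: 4 of 11 rose and 5 fell, beside 22.7% higher and 48.9% lower of all genes. The median was -0.03, and 0.30 under median-of-ratios scaling. That scaling called 6 higher and 5 lower (all genes 37.1% and 37.7%), and the fit at matched GC content 5 higher and 3 lower (all genes 34.5% and 31.7%). DIS3 (ENSG00000083520, chromosome 13, 72752169 to 72782096), its main nuclease, was at 36.4, 32.5 and 32.9 TPM with DMSO and at 10.7, 10.6 and 8.22 TPM with 16'-DEC. The groups lay far apart (-1.69 ± 0.11, SE, adjusted p = 1.77e-06, limma; -0.30 at matched GC content, adjusted p = 0.00119). DIS3 overlaps BORA and PIBF1 on the other strand, which went from means of 13.6 and 23.8 TPM to 3.54 and 3.88 TPM, and no use of strand is stated, so reads of these genes cannot be told apart where they overlap. EXOSC10, the nuclear nuclease, was at 64.4, 66.0 and 69.1 TPM with DMSO and at 70.3, 69.9 and 60.1 TPM with 16'-DEC. Its groups overlapped and it did not pass (0.00215, adjusted p = 0.983, limma), although it passed as higher at 0.35 under median-of-ratios scaling.

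In the cap, EXOSC1 was at 43.2, 45.9 and 49.0 TPM with DMSO and at 71.4, 74.8 and 76.2 TPM with 16'-DEC. It rose without overlap by 0.68 ± 0.08 (SE, adjusted p = 5.00e-05, limma), and was at 0.90 at matched GC content. EXOSC3 went the other way, from 76.6 ± 0.573 to 51.0 ± 1.71 TPM (SD, n = 3), a change of -0.58 that was 0.26 at matched GC content. EXOSC2 stayed within its spread as deposited (18.1 ± 1.18 and 17.7 ± 0.877 TPM, SD, n = 3; adjusted p = 0.73, limma). However, it was called higher under median-of-ratios scaling (0.30) and after quantile normalization (0.41).

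In the ring, EXOSC4 was at 10.9, 13.8 and 14.9 TPM with DMSO and at 24.9, 23.9 and 25 TPM with 16'-DEC, the largest rise of any member (0.86 ± 0.11, SE, adjusted p = 1.36e-04, limma; 0.58 at matched GC content). EXOSC9, its neighbour in the ring, was at 34.0, 32.5 and 33.1 TPM with DMSO and at 14.2, 17.8 and 16.3 TPM with 16'-DEC. It fell by 1.01 ± 0.10 (SE, adjusted p = 1.67e-05, limma; -0.28 at matched GC content). EXOSC9 overlaps CCNA2, cyclin A2, on the other strand, which was at means of 50.4 and 16.7 TPM. EXOSC8 fell by 0.92 (71.8 ± 4.10 to 37.5 ± 2.20 TPM, SD, n = 3; -0.47 at matched GC content) and EXOSC6 by 0.70 (12.5 ± 1.10 to 7.31 ± 0.135 TPM). EXOSC6 did not pass at matched GC content (-0.15, adjusted p = 0.213, limma) or after quantile normalization (-0.22, adjusted p = 0.0678). Their neighbours EXOSC5 and EXOSC7 rose by 0.32 and 0.23. EXOSC5 was at 0.01 at matched GC content and lost its call when DMSO replicate 1 or 16'-DEC replicate 1 or 3 was left out (adjusted p from 0.0549 to 0.075, limma), and EXOSC7 lost its call when DMSO replicate 1 (adjusted p = 0.0588) or the second 16'-DEC library (adjusted p = 0.0512, limma) was left out.

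Of 8 factors of nonsense-mediated decay, 3 fell and 5 did not pass, where 48.9% of all genes fell and 22.7% rose. UPF2 (ENSG00000151461, chromosome 10, 11920022 to 12043170), which joins UPF1 to UPF3B, was at 26.1, 23.6 and 24.4 TPM with DMSO and at 6.24, 5.98 and 4.66 TPM with 16'-DEC. Less than a level of 7 TPM remained in every treated library, and the fall was the largest of all members (-1.96 ± 0.11, SE, adjusted p = 8.08e-07, limma; -0.72 at matched GC content). UPF3B, which binds the exon junction complex, was at 11.5, 11.2 and 12.1 TPM with DMSO and at 3.54, 3.05 and 2.60 TPM with 16'-DEC (-1.64, and -0.74 at matched GC content). SMG1, the kinase that phosphorylates UPF1, was at 38.5, 26.6 and 34.6 TPM with DMSO and at 15.0, 12.5 and 7.51 TPM with 16'-DEC. Its replicates spread more than those of the other members named here, and its change was -1.47 ± 0.22 (SE, adjusted p = 3.41e-04, limma; -0.56 at matched GC content), between -1.66 and -1.21 without any 1 library. SMG1 has 7 annotated pseudogene copies, listed at up to 3.83 TPM with DMSO, and reads could be split between them, so its level is uncertain.

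UPF1 itself (ENSG00000005007, chromosome 19, 18831938 to 18868236) was at 26.0, 30.5 and 29.2 TPM with DMSO and at 33.0, 31.2 and 27.8 TPM with 16'-DEC. The groups overlapped and it did not pass (0.10 ± 0.10, SE, adjusted p = 0.375, limma). SMG5 and SMG6, which act on phosphorylated UPF1, and SMG8 and SMG9, which regulate SMG1, had changes from 0.00441 to 0.13 and did not pass either. SMG8 did pass as higher at matched GC content (0.43, adjusted p = 2.21e-04, limma) and when 16'-DEC replicate 3 was left out (adjusted p = 0.0392). Under median-of-ratios scaling and after quantile normalization these 5 factors were called higher, at 0.34 to 0.46 in the former, while UPF2, UPF3B and SMG1 were still lower. Of all genes, 37.1% and 42% were called higher there.

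Among the binders of AU-rich elements, ZFP36 (tristetraprolin; ENSG00000128016, chromosome 19, 39406813 to 39409412), which recruits the deadenylase to its targets, was at 7.36, 8.29 and 8.04 TPM with DMSO and at 11.8, 11.8 and 12.4 TPM with 16'-DEC. It rose without overlap by 0.55 ± 0.09 (SE, adjusted p = 4.46e-04, limma; 0.28 at matched GC content) and under every alternative. Its relative ZFP36L2 (ENSG00000152518, chromosome 2, 43222402 to 43226609) was at 63.6, 69.9 and 57.2 TPM with DMSO and at 36.6, 38.6 and 35.8 TPM with 16'-DEC, a fall of 0.76 (adjusted p = 6.63e-05, limma) that was 0.78 at matched GC content. ZFP36L1, the third of the family, was at 58.4 ± 5.93 and 52.7 ± 1.06 TPM (SD, n = 3), with overlapping groups and no pass under any alternative. ELAVL1 (HuR), which stabilizes such mRNAs, was at 58.2 ± 3.02 and 62.3 ± 7.35 TPM and KHSRP, which promotes their decay, at 112 ± 1.61 and 112 ± 23.6 TPM (SD, n = 3). Neither passed, and KHSRP ranged from 85.4 to 131 TPM within the treated group. ELAVL1 was called higher at matched GC content (0.61, adjusted p = 1.19e-04, limma), under median-of-ratios scaling (0.44) and after quantile normalization (0.32), and KHSRP under median-of-ratios scaling (0.32). TOB1, an antiproliferative protein that brings CCR4-NOT to poly(A)-binding protein, was at 98.4, 99.1 and 87.5 TPM with DMSO and at 36.4, 35.9 and 35.5 TPM with 16'-DEC. The treated libraries hardly differed among themselves, and the change was -1.38 ± 0.08 (SE, adjusted p = 6.94e-07, limma; -0.54 at matched GC content). TOB2, its paralog, did not pass (21.3 ± 1.89 and 18.8 ± 1.85 TPM, SD, n = 3).

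Under all 18 settings, the main one included, 12 members were called lower every time: UPF2, DIS3, UPF3B, SMG1, PAN3, TOB1, PAN2, EXOSC9, EXOSC8, CNOT2, ZFP36L2 and LSM1. EDC3, ZFP36, EXOSC1 and EXOSC4 were called higher every time. Of the 9932 genes tested under all settings, 21.5% were lower every time and 20.7% higher, against 24% and 8% of members. Another 7 (14%, against 12.4% of those genes) were called in both directions, depending on the setting: XRN2, DCP1A, DCP2, DDX6, CNOT6L, CNOT7 and EXOSC3 were lower as deposited and higher at matched GC content.

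**Figure D2:**
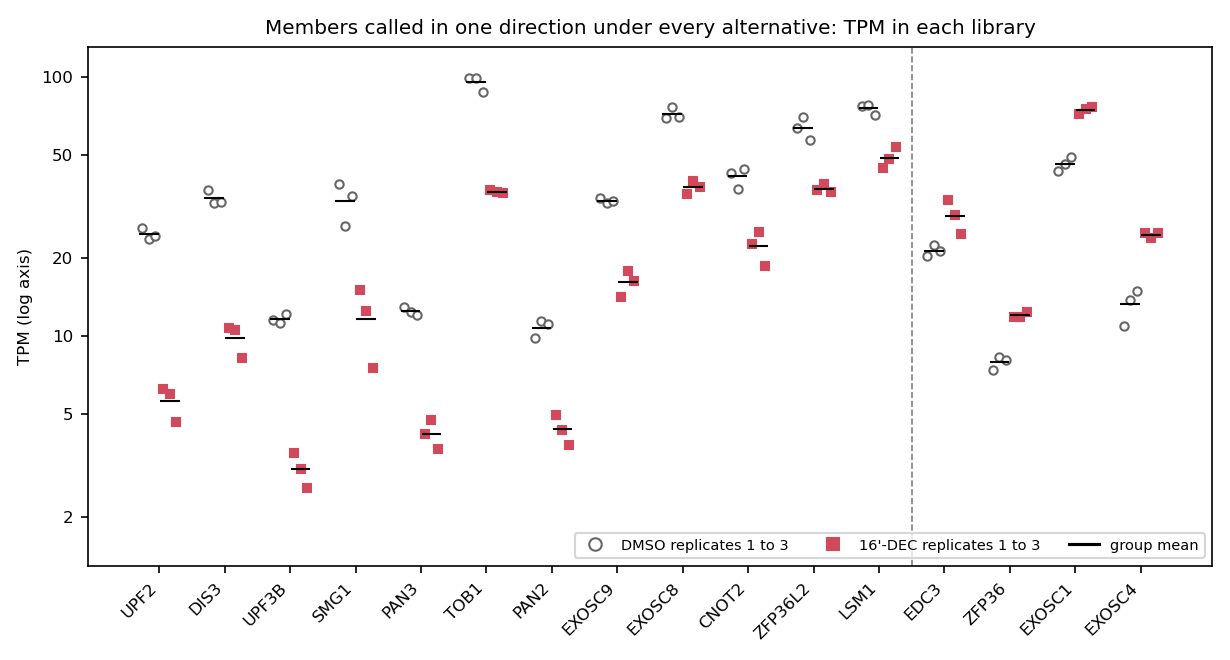
TPM on a log axis in each of the 6 libraries for the 16 members called in one direction under every alternative, 12 lower to the left of the dashed line and 4 higher to the right. Open circles are DMSO libraries, filled squares 16'-DEC libraries and bars group means. No gene shown has overlapping groups, and TOB1 has the tightest treated libraries, from 35.5 to 36.4 TPM.

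The members' changes followed transcript GC content, which the choice of members did not use. Across the 50 members Spearman's rho was 0.739 (0.67 with GC content at the third codon position), beside 0.705 over the 11401 protein-coding genes tested. These are correlations across genes, which share the same 6 libraries and are not independent replicates. All 7 members under 40% GC fell (XRN1, DIS3, CNOT6L, CNOT6, DCP2, DDX6 and CNOT7; median -1.16), as did all 11 members from 40% to 45% (median -0.87). The protein-coding genes tested had medians of -1.52 and -0.89 in those ranges. Their middle 50% lay from -1.94 to -1.1 and from -1.35 to -0.45, so most of them were lower there too. Calls on all genes were not counted by GC range. Of 16 members from 45% to 50%, 9 fell and 1 rose (median -0.33; protein-coding genes -0.29). From 50% to 55%, 3 of 6 members fell and 2 rose, and the members' median was -0.34 where that of the protein-coding genes was 0.10. None of the 10 members above 55% fell and 3 rose, with medians of 0.13 below 60% GC and 0.32 above it (protein-coding genes 0.27 and 0.29). The middle 50% of the protein-coding genes lay from -0.06 to 0.59 and from -0.03 to 0.59 in those ranges.

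Of the 50 members, 35 lay within the middle 50% of the protein-coding genes of their GC range, 9 below it and 6 above. Below were UPF2, UPF3B, SMG1 and TOB1 (middle 50% from -1.35 to -0.45), PAN3 and EXOSC8 (from -0.71 to 0.12), and PAN2, ZFP36L2 and DCP1B (from -0.26 to 0.45). Above were DCP2, DDX6 and CNOT7 under 40% GC, EXOSC1 and SMG8 between 45% and 50%, and EXOSC4 above 60%. Transcript length had a weaker relation with the change over the members (rho -0.33), with a median length of 3590 bases.

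**Figure D3:**
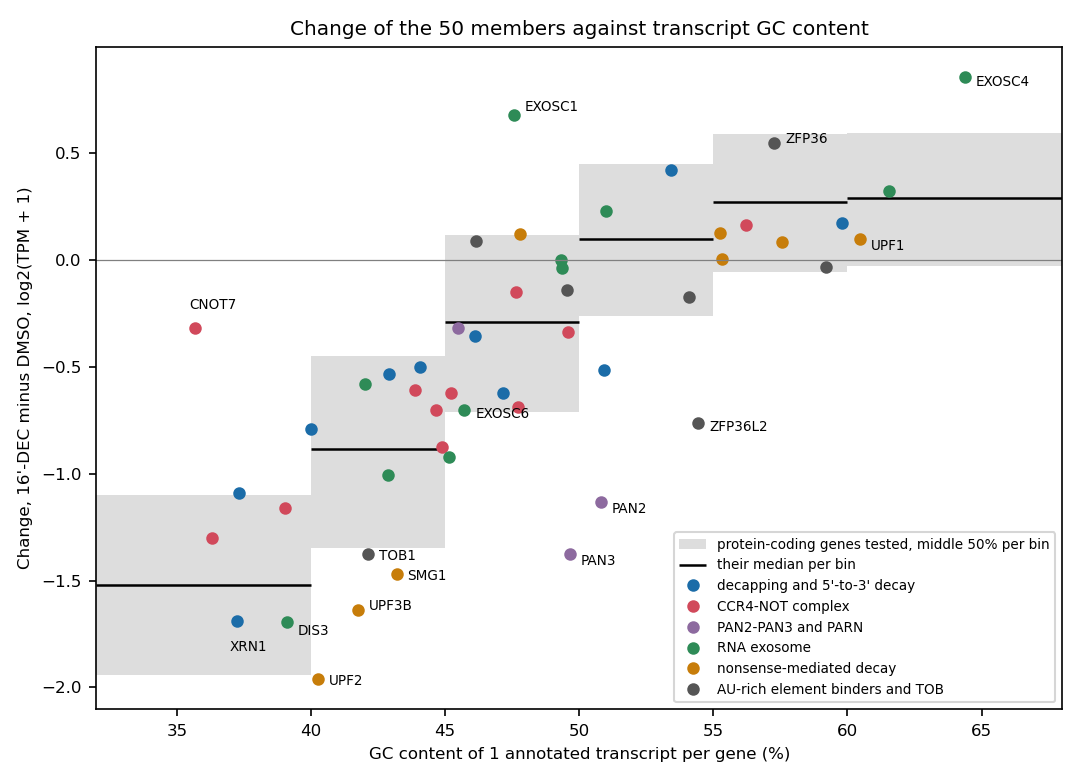
Change of each member on the log2(TPM + 1) scale (vertical axis) against the GC content of its annotated transcript in percent, coloured by complex. Grey boxes hold the middle 50% of protein-coding genes tested in each GC range and black lines their medians, which rise from -1.52 under 40% to 0.29 above 60%. Of the members, 9 lie below their box, among them PAN2 and PAN3, and 6 above, among them EXOSC1 and EXOSC4.

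Ratios of 2 members within one library do not move with the scaling of that library, so they were compared for 10 pairs of paralogs or partners. They take no pseudocount, whereas shifts at matched GC content rest on log2(TPM + 1), so these values also differ in scale. The exact permutation test (2-sided) of 3 against 3 cannot go below p = 0.10, so no pair can pass 0.05 and the test decides nothing. The 8 pairs without overlap reached that floor (0.125 adjusted over the 10 pairs). All 10 pairs were chosen with earlier results of these data known. Of all single genes, 75.3% did not overlap between groups, and the share over other pairs was not counted. The ratio of UPF1 to UPF2 was 0.997, 1.3 and 1.2 with DMSO and 5.29, 5.22 and 5.96 with 16'-DEC. Both were thus at similar levels per length in the controls, and UPF1 was over 5 times as abundant in every treated library. That was a shift of 2.25 on the log2 scale (2.06 with a pseudocount of 1, and 0.68 at matched GC content). The ratio of EXOSC10 to DIS3 went from 1.77, 2.03 and 2.10 to 6.55, 6.61 and 7.32, a shift of 1.80 (0.45 at matched GC content). TOB1 was 4.89, 4.22 and 4.33 times as abundant as TOB2 with DMSO and 1.79, 1.87 and 2.12 times with 16'-DEC, a shift of -1.22 (-0.40 at matched GC content).

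Within the ZFP36 family, the ratio of ZFP36L1 to ZFP36L2 was 0.916, 0.921 and 0.919 with DMSO and 1.46, 1.37 and 1.44 with 16'-DEC, so that the order of these paralogs turned. That shift of 0.63 on the log2 scale was 0.81 at matched GC content. The ratio of ZFP36 to ZFP36L1 rose from 0.126, 0.129 and 0.153 to 0.221, 0.222 and 0.241 (a shift of 0.75, and 0.25 at matched GC content), with ZFP36 the least abundant of the family throughout. The ratio of XRN1 to XRN2 fell from between 0.0541 and 0.0716 to between 0.0184 and 0.0304. That was a shift of -1.54 on the log2 scale (-1.16 with a pseudocount of 1, and -0.45 at matched GC content). Of the deadenylase paralogs, CNOT6 to CNOT6L shifted by 0.19 (-0.10 at matched GC content) and CNOT7 to CNOT8 by 0.30 (1.29 at matched GC content, the widest such shift of the 10 pairs). For DCP1A to DCP1B and PAN2 to PAN3 the groups overlapped, with shifts of 0.03 (exact permutation p = 0.5) and 0.27 (exact permutation p = 0.3) that were 0.78 and 0.29 at matched GC content.

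The ring of the exosome is built from the dimers EXOSC4-EXOSC9, EXOSC5-EXOSC8 and EXOSC7-EXOSC6, and these ratios were added after the values had been seen, with no test. EXOSC4 to EXOSC9 was 0.322, 0.425 and 0.45 with DMSO and 1.76, 1.34 and 1.54 with 16'-DEC. EXOSC5 to EXOSC8 went from between 0.193 and 0.236 to between 0.452 and 0.580, and EXOSC7 to EXOSC6 from between 2.28 and 2.89 to between 4.94 and 5.10. In each dimer the libraries of the groups did not overlap, and the log2 shifts of 1.96, 1.28 and 1.01 were 0.85, 0.49 and 0.40 at matched GC content.

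**Figure D4:**
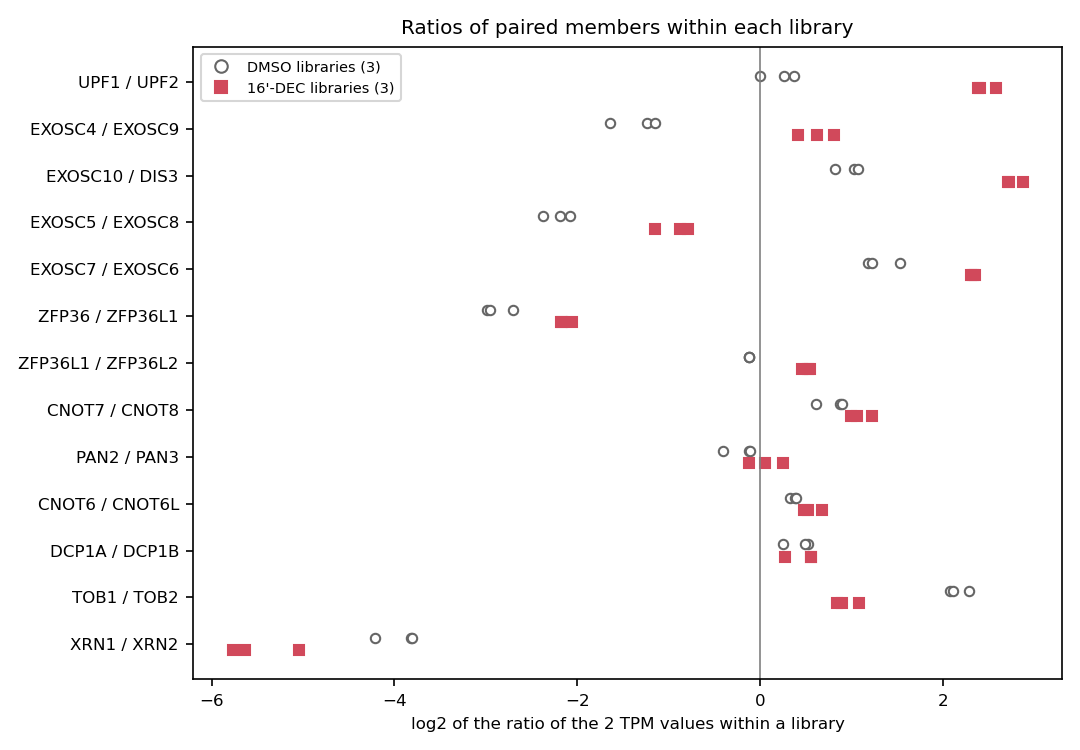
log2 of the TPM ratio of 2 members within each library (horizontal axis) for 10 pairs, chosen with earlier results of these data known, and the 3 dimers of the exosome ring. Open circles are the 3 DMSO libraries and filled squares the 3 16'-DEC libraries. UPF1 to UPF2 shows the widest shift (2.25), and only DCP1A to DCP1B and PAN2 to PAN3 have overlapping groups.

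Other genes of the pathway were counted from 6 lists, to be read beside the 22.7% of all genes that rose and the 48.9% that fell. Under median-of-ratios scaling those shares of all genes were 37.1% and 37.7%. Of 19 further 5'-to-3' decay factors 3 rose and 10 fell (median -0.27, 0.08 and 0.03 on the median-of-ratios and quantile scales). PNRC2, a decapping cofactor, was at 232, 227 and 214 TPM with DMSO and at 54.3, 51.8 and 49.2 TPM with 16'-DEC, so that it fell by 2.09 (-0.75 at matched GC content). The LSM ring that holds LSM1 split: LSM5, LSM6 and LSM3 fell, LSM2 and LSM4 rose and LSM7 did not pass. LSM4 was at 0.02 at matched GC content (adjusted p = 0.853, limma), and its adjusted p reached 0.0587 with 1 library left out. LSM3 did not pass after quantile normalization (-0.14, adjusted p = 0.257) or at matched GC content (-0.19, adjusted p = 0.127, limma). LSM5 fell by 1.89 (-0.46 at matched GC content), LSM6 by 1.01 (0.04 at matched GC content) and LSM2 rose by 0.80. LSM14A, a decapping activator, fell by 1.06 (0.10 at matched GC content), and NOCT, a member of the CCR4 nuclease family, rose from 6.78 ± 1.17 to 14.5 ± 3.34 TPM (SD, n = 3).

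Of 18 cofactors of the exosome and uridylation enzymes, 15 fell and 2 rose, beside 48.9% lower and 22.7% higher of all genes. The median was -1.32. At matched GC content it was -0.37, with 10 lower and 2 higher, beside 31.7% lower and 34.5% higher of all genes. SKIC3, the scaffold of the SKI complex that feeds mRNA into the cytoplasmic exosome, was at 56.9, 60.5 and 54.5 TPM with DMSO and at 11.2, 10.3 and 10.4 TPM with 16'-DEC (-2.33, adjusted p = 1.17e-07, limma; -0.88 at matched GC content). SKIC2, its helicase, was at 0.31 (adjusted p = 0.0199, limma) and lost its call when any 1 of 4 libraries was left out, DMSO 1 or 3 or 16'-DEC 1 or 2 (adjusted p from 0.0541 to 0.0657). C1D, a nuclear exosome cofactor, fell by 1.98 (-0.35 at matched GC content), TUT4, a terminal uridylyltransferase, by 1.96 (-0.65) and ZFC3H1, part of a nuclear exosome adaptor, by 2.17 (-1.0). PELO, which rescues stalled ribosomes, rose from 13.9 ± 1.00 to 21.0 ± 0.457 TPM (SD, n = 3).

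Of 17 further nonsense-mediated decay and exon junction factors, 3 rose and 6 fell (median -0.13, 0.21 and 0.15 on the median-of-ratios and quantile scales). UPF3A, the paralog of UPF3B, was at 97.7, 92.4 and 90.4 TPM with DMSO and at 32.4, 36.0 and 34.1 TPM with 16'-DEC. Its fall of 1.43 was 1.27 at matched GC content. The core exon junction proteins MAGOH and MAGOHB, near-identical paralogs whose reads may be shared, fell by 1.10 and 1.42 (-0.60 and -0.02 at matched GC content), ETF1, the release factor, fell by 0.65 (0.24 at matched GC content), and EIF4A3, the helicase of the junction, rose by 0.44. RUVBL2, an ATPase that assists SMG1, rose by 0.60 (0.27 at matched GC content). Among 21 genes of miRNA and other sequence-specific decay none rose and 14 fell (median -0.51, and 10 lower and 4 higher under median-of-ratios scaling). TIA1, a binder of AU-rich elements, went from 172, 152 and 159 TPM to 23.0, 22.5 and 19.1 TPM, so that it fell by 2.85 (-1.3 at matched GC content), more than any of the 50 members did. Its paralog TIAL1 fell by 0.93 (-0.14), YTHDF3, a reader of methylated mRNA, by 1.35 (-1.02), and RC3H2, a relative of roquin, by 1.47 (0.04).

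The last lists hold mRNAs that these pathways are known to act on. Of 35 mRNAs with AU-rich elements 24 were tested, and 14 rose and 6 fell, at a median of 0.39, beside 22.7% higher and 48.9% lower of all genes. DUSP1, a phosphatase of MAP kinases, was at 8.45, 9.49 and 9.87 TPM with DMSO and at 34.2, 37.4 and 35.6 TPM with 16'-DEC (1.84, and 1.65 at matched GC content). PLAUR, the urokinase receptor, rose from 5.34 ± 0.266 to 14.4 ± 0.0963 TPM and FOSL1, an AP-1 subunit, from 12.2 ± 1.48 to 24.8 ± 0.874 TPM (SD, n = 3). CCL20, a chemokine, fell from 834 ± 80.7 to 231 ± 6.45 TPM (-1.84, and -0.41 at matched GC content) and VEGFA, an angiogenic growth factor, from 129 ± 3.41 to 50.9 ± 4.35 TPM (-1.32, and -1.47 at matched GC content). The transcripts used for PLAUR, CCL20 and VEGFA have 3' UTRs of only 310, 451 and 387 bases, and other transcripts were not tried.

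Of 17 known substrates of nonsense-mediated decay 15 were tested, and 6 rose and 7 fell (median -0.04, 0.31 and 0.04 on the median-of-ratios and quantile scales). ATF3, a stress-induced transcription factor, was at 7.28, 6.13 and 6.06 TPM with DMSO and at 14.2, 17.2 and 14.7 TPM with 16'-DEC (1.13 with and without matched GC content), and TBL2 rose by 0.93. SNHG12, a snoRNA host gene, went from 33.2, 37.3 and 34.4 TPM to 12.7, 14.2 and 13.2 TPM. That was a fall of 1.32 (-1.50 at matched GC content). SNHG8 fell by 1.17 and SNHG1 by 0.75 (-0.34 at matched GC content). GADD45A, a stress sensor, fell by 0.67.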

How the data were processed

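RNA was measured in 6 Huh7 libraries, grouped by title, and read from 1 deposited table of TPM. Per the labels' protocols, poly(A) RNA was fragmented and primed randomly, with no strand marking described. Tools listed in the submitters' processing notes are HISAT2 2.0.1, HTSeq 0.6.1, cutadapt 1.9.1 and DESeq2, and the build is GRCh38. For the annotation and gene lengths, the sources used here give nothing. The authors' TPM sum to the same fixed total in every library, so absolute depth and counting error are unknown. At most 0.329% of values were identical between any pair, so each library was counted as its own sample.

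Values were tested as log2(TPM + 1) with limma 3.58.1 (R 4.3.3; mean trend, 2-sided) on genes whose mean reached 1 TPM, adjusted over all of them. GC content and length of transcripts were taken from GENCODE 29 (principal, then basic, then longest transcript), matched for 93.1% of genes tested and all members. The trend was removed with natural splines (5 degrees of freedom each). The fits were tested on simulated data. Alternatives are under the closing section. The members, lists and pairs were chosen with earlier results of these data known. All 50 members were named, and of each other list up to 4 genes that moved with its majority and 2 that moved against it, by lowest adjusted p. Of the genes so chosen, 1 is not reported here.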

Additional observations from a re-analysis of the deposited data

How the results depend on the processing

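The counts of members called were 6 higher and 30 lower. The count of higher members moved to 17 under median-of-ratios scaling, 17 after quantile normalization, 16 with GC content and length removed and 14 with the replicate block added to that removal, and the count of lower members to 15 in both of the last fits. Over all genes, 3236 were higher and 6974 lower. Higher genes moved to 5290 under median-of-ratios scaling and 5990 after quantile normalization, and lower genes to 4213 with GC content and length removed and 3982 with the replicate block added. Without any 1 library, 4 to 6 members were higher and 27 to 30 lower, and 2773 to 3426 genes were higher and 6670 to 6754 lower.

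Signs that turned are given for genes that passed in the reported fit or in the alternative. With GC content and length removed, members turned to 0.313 (XRN2), 0.262 (DCP1A), 0.454 (DCP2), 0.488 (DDX6), 0.125 (PATL1), 0.0163 (CNOT1), 0.215 (CNOT6), 0.315 (CNOT6L), 1.33 (CNOT7), 0.0392 (CNOT8), 0.195 (CNOT9), 0.167 (PARN) and 0.256 (EXOSC3), as did LSM6 (0.0412), LSM14A (0.104), ETF1 (0.241) and RC3H2 (0.0366), and the ratio of CNOT6 to CNOT6L to -0.0992. The replicate block on top left these values as they were. Median-of-ratios scaling turned CNOT7 (0.0289), CNOT11 (0.0127), PARN (0.0268), EXOSC2 (0.299) and KHSRP (0.316), and quantile normalization turned PATL1 (0.0742), EXOSC2 (0.408) and TOB2 (0.261). The cause was not tested.

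Replicate numbers shared by the groups did not pair the libraries: deviations of same-numbered libraries from their group means correlated at 0.0941, -0.182 and -0.0726. With the replicate number as a block, 5 members were higher and 30 lower, and over all genes 3014 and 6823. EXOSC7 did not pass in that fit (adjusted p = 0.0573, limma). Pseudocounts of 0.1 and 5, a mean of at least 5 TPM and no mean trend left the call of all 50 members as it was. No filter on low values took 4 calls (PATL1, CNOT7, PARN, EXOSC5) and a threshold of 0.01 took 5. TPM keep no depth, so no limit of detection was set.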

Other observations

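Several members overlap another gene on the opposite strand, and levels of these neighbours are given because no use of strand is stated. LSM1 overlaps BAG4, which was at a mean of 37.3 TPM with DMSO and 9.55 TPM with 16'-DEC. EXOSC8 overlaps SUPT20H (32 and 14.1 TPM) and ALG5 (47.8 and 53.7 TPM). EXOSC5 overlaps BCKDHA (9.04 and 15.4 TPM), EDC3 overlaps CLK3 (31.2 and 43.1 TPM) and CNOT7 overlaps VPS37A (51.9 and 30.6 TPM). Among the 7 annotated copies of SMG1, SMG1P3 was at 3.83 and 2.45 TPM, SMG1P1 at 1.75 and 1.42 TPM and SMG1P5 at 1.23 and 0.555 TPM. These overlaps are of whole gene spans, introns included, and their part in the members' values was not tested.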
